A study of Mus musculus with 10 samples.

Results

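The transcripts of 10 genes that make, use or carry lactate and pyruvate were followed through 10 mouse cutaneous tumors. They are the lactate dehydrogenases Ldha, Ldhb and Ldhd, the monocarboxylate transporters Slc16a1, Slc16a3, Slc16a4 and Slc16a7, the chaperone Bsg of Slc16a1 and Slc16a3, and the mitochondrial pyruvate carrier subunits Mpc1 and Mpc2. They were taken by symbol from the 35275 genes of each table, and all 10 were found and passed the filter on low counts that left 15176 genes. The RNA-seq libraries used here are from 5 tumors of genotype LDHA-/- (Ldha-null) and 5 of wild-type genotype. The study deleted floxed Ldha in hair follicle stem cells through inducible Cre (K15CrePR or Lgr5CreER), in a genetic tumor model that includes loss of p53, or treated mice with the carcinogens DMBA and TPA. Which of these models gave the sequenced tumors is not stated, and neither are the sex and age of each mouse. The mice were of both sexes and of a mixed C57BL6/FVB background. Some tumors of the study were mosaic for Ldh activity, which its authors presumed to come from the inducible recombination. The source is labelled squamous carcinoma cells, but the protocol names fresh tumors with no sorting, so stroma, skin and muscle can contribute RNA. The floxed part of Ldha is not named in the sources used here, so Ldha RNA, which can still be made from a gene with a deleted exon, does not check the genotype labels.

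Lactate dehydrogenase interconverts pyruvate and lactate while NADH and NAD+ are exchanged, and it lets glycolysis run without mitochondrial oxidation of NADH. Ldha and Ldhb encode the subunits of its tetramer, with Ldha typical of glycolytic tissue and Ldhb of oxidative tissue such as heart. Lactate leaves or enters cells through proton-coupled carriers. Those encoded by Slc16a1 and Slc16a3 need the membrane glycoprotein basigin (Bsg) to reach the surface. Pyruvate enters mitochondria through a complex of MPC1 and MPC2.

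Total counts were 12969508 to 17694201 per tumor, so each tumor had 3968 to 39487 fragments of Ldha and only 15 to 129 of Slc16a7, the least abundant of the 10 genes. Wild-type tumor 5 stood apart from the other tumors, and so did tumors 1 and 3 of the Ldha-null group, which leaves 7. They had the lowest levels of Vim, a mesenchymal filament (1485, 198 and 869 FPKM, against 4101 to 6043), and the first principal component, with 43.4% of the variance, placed these 3 on its negative side and the other 7 on its positive side. Clustering of the tumors into 2 groups over all tested genes set apart Ldha-null tumor 1 alone. In Ldha-null tumor 1, 12 skeletal muscle genes took 13.9% of all counts, against 0.00476% to 0.0266% in the other 9, of which 8 had the troponin Tnnc2 at 0 counts, and the muscle creatine kinase Ckm stood at 5646 FPKM against 1.13 to 4.19. Adipocyte genes took 0.138% of counts in the same tumor, against 0.000227% to 0.00528% in the other 9. Basal keratinocyte genes took 4.71% of counts in Ldha-null tumor 3 and 5.67% in wild-type tumor 5, against 0.0921% to 0.801% in the rest, and their keratin Krt14 stood at 28399 and 28691 FPKM against 138 to 4195. In bulk tissue, fewer cells of a type and less RNA per cell cannot be told apart. P-values measure the spread between these tumors, which the series description gives as separate mice.

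Ldha (ENSMUSG00000063229, chr7:46841475-46855627 of mm10, plus strand), the main subunit of lactate-forming dehydrogenase and the targeted gene, stood at 1882.5, 246, 1288, 542 and 324 FPKM (fragments per kilobase of gene, scaled to the total of the library) in Ldha-null tumors 1 to 5. In wild-type tumors 1 to 5 it stood at 389.6, 340.1, 345, 589 and 2824 FPKM. The 3 tumors that stood apart were the 3 highest of the 10, at 5.45, 3.73 and 8.18 times the median of the other 7, and the genotypes overlapped throughout. Ldha was the 16th most abundant of 35275 genes by FPKM in wild-type tumor 5, the 53rd in Ldha-null tumor 1 and the 106th in Ldha-null tumor 3, and ranked from 194 to 430 in the other 7. The processed pseudogenes Ldha-ps and Ldha-ps2 had at most 4 and 2 counts in any tumor.

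Ldhb (ENSMUSG00000030246, chr6:142490249-142507957, minus strand), the subunit of oxidative tissue, stood at 216, 23.4, 23.2, 10.5 and 16.7 FPKM in the Ldha-null tumors. In the wild-type tumors it stood at 26.8, 12.9, 16.3, 11.6 and 25.4 FPKM. Ldha-null tumor 1 was 8.07 times the next highest tumor, while the other 9 lay between 10.5 and 26.8 FPKM. Ldhb was below Ldha in every tumor, with an Ldhb to Ldha ratio of 0.00901 in wild-type tumor 5 to 0.115 in Ldha-null tumor 1. The geometric mean of this ratio was 0.0455 in Ldha-null and 0.0294 in wild-type tumors, a difference within the spread (two-sided exact permutation p = 0.437, adjusted over 4 ratios p = 0.794, n = 5 per genotype).

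Ldhd (ENSMUSG00000031958, chr8:111623785-111630374, minus strand), a mitochondrial enzyme that oxidises D-lactate, stood at 4.94, 2.04, 2.30, 2.37 and 3.63 FPKM in the Ldha-null tumors and at 1.09, 4.99, 1.66, 0.728 and 2.09 FPKM in the wild-type tumors. It was low in all 10 tumors, at 42 to 280 fragments. Its listed span overlaps that of Znrf1 on the opposite strand, and the counting is not stated to use strand. Whether their exons overlap was not examined, so any effect on the counts of Ldhd is not known. Of the methylglyoxal pathway genes, whose glyoxalases form D-lactate, Glo1 and Hagh had log2 fold changes of 0.54 and 0.63 between the genotypes and Haghl of -0.39 (edgeR adjusted p = 0.999 for all 3).

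**Figure D1:**
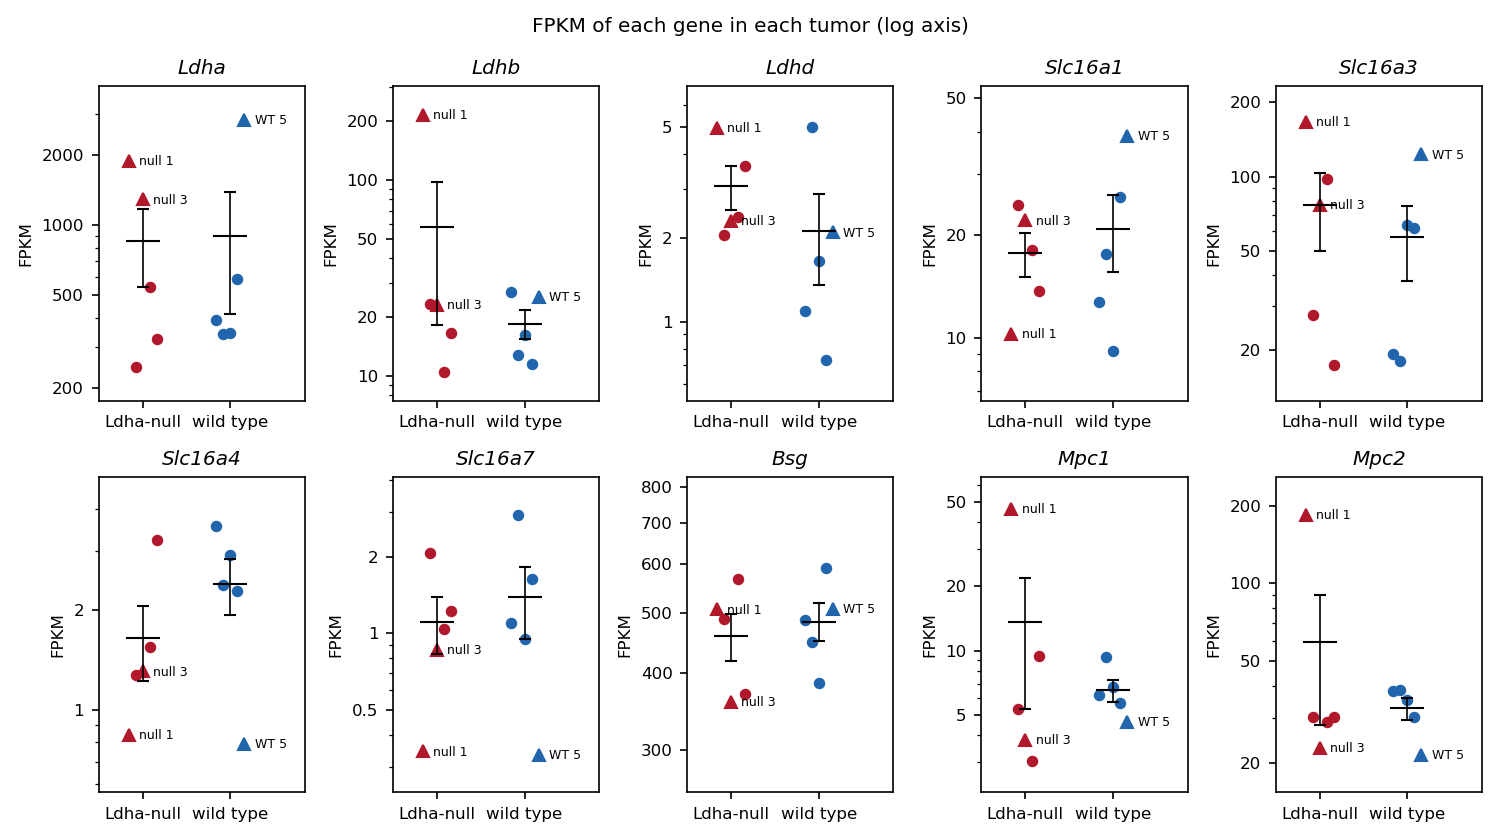
FPKM (log axis) of the 10 genes in each Ldha-null (red) and wild-type (blue) tumor; triangles mark the 3 tumors that stood apart, and bars give the mean ± SEM (n = 5). For Ldhb, Mpc1 and Mpc2 the highest point is Ldha-null tumor 1, at 216, 46.4 and 184 FPKM, far above the other 9 tumors, and for Ldha the 3 triangles lie above all circles.

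Slc16a3 (ENSMUSG00000025161, chr11:120948480-120960868, plus strand) encodes MCT4, a carrier known for lactate export from glycolytic cells. It stood at 166, 27.5, 77.0, 97.4 and 17.4 FPKM in the Ldha-null tumors and at 19.2, 18.1, 63.8, 61.8 and 123 FPKM in the wild-type tumors. It was the most variable carrier among the 7 tumors, with a coefficient of variation of 71.5%. Ldha-null tumor 1 and wild-type tumor 5 were the 2 highest, and tumors at 17.4 to 27.5 FPKM were found in both genotypes.

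The windows before the transcription starts of Ldha and Slc16a3, the pair of genes that were high together in Ldha-null tumor 1 and wild-type tumor 5, are shown for the core letters of the hypoxia response element, ACGTG on either strand. RefSeq windows (GRCm38.p6) were found for 8 of the 10 genes, and Bsg and Slc16a7 are missing entries. Of 32851 windows of 250 bases, 16.6% held at least 1 stretch with the letters, 1.93% at least 2 and 0.244% at least 3. Overlapping matches, as in CACGTG, count as 1 stretch. The first window of Ldha held 3 stretches and its second window none, Slc16a3 held 2, and Slc16a1 and Ldhd held 1 each. The windows of Ldhb, Slc16a4, Mpc1 and Mpc2 held none of these letters. Capitals mark the stretches, each sequence is 5′ to 3′, and a match describes letters only.
Ldha, plus strand, chr7:46845554-46845803: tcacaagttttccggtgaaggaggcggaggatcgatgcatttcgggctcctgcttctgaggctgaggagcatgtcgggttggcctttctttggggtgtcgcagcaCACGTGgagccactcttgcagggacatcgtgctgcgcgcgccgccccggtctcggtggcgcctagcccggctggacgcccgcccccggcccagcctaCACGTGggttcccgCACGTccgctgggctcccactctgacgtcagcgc
Slc16a3, plus strand, chr11:120948817-120949066: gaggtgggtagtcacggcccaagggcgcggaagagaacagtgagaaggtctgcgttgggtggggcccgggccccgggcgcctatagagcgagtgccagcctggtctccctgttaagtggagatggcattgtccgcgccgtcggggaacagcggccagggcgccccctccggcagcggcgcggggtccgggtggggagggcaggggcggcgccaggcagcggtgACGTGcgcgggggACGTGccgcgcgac

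Slc16a1 (ENSMUSG00000032902, chr3:104638668-104658462, plus strand) encodes MCT1, a carrier that works in either direction. It stood at 10.2, 24.4, 22.0, 18.0 and 13.7 FPKM in the Ldha-null tumors and at 12.7, 17.6, 9.16, 25.8 and 38.8 FPKM in the wild-type tumors. Wild-type tumor 5 was the highest, whereas Ldha-null tumor 1, the highest for Slc16a3, was the second lowest. The Slc16a3 to Slc16a1 ratio of FPKM accordingly ran from 1.03 in wild-type tumor 2 to 16.2 in Ldha-null tumor 1, with geometric means of 3.37 in Ldha-null and 2.41 in wild-type tumors (two-sided exact permutation p = 0.595, adjusted over 4 ratios p = 0.794). The length implied by the FPKM of Slc16a3 was 1546 bases, against 4335 listed, whereas for Slc16a1 both were 4426. By the listed lengths the ratio ran from 0.367 to 5.78, so which of both carriers was the more abundant per length depended on the length used.

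Slc16a7 (ENSMUSG00000020102, chr10:125226464-125328963, minus strand), which encodes the high-affinity carrier MCT2, stood at 0.344, 2.06, 0.861, 1.04 and 1.23 FPKM in the Ldha-null tumors and at 1.10, 2.92, 0.948, 1.63 and 0.333 FPKM in the wild-type tumors. The 3 tumors that stood apart were the 3 lowest, the opposite order to Ldha. Slc16a4 (ENSMUSG00000027896, chr3:107291230-107312115, plus strand), a less studied member of the same family, stood at 0.841, 1.27, 1.31, 1.54 and 3.24 FPKM in the Ldha-null tumors and at 3.56, 2.37, 2.93, 2.27 and 0.793 FPKM in the wild-type tumors. Its lowest values were those of wild-type tumor 5 and Ldha-null tumor 1, and the genotypes overlapped (two-sided exact permutation of log2 CPM, p = 0.349).

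Bsg (ENSMUSG00000023175, chr10:79704491-79711969, plus strand), the chaperone of MCT1 and MCT4, was the most even of the 10 genes. It stood at 507, 489, 359, 569 and 370 FPKM in the Ldha-null tumors and at 487, 450, 385, 592 and 508 FPKM in the wild-type tumors, a 1.65-fold range over the 10. Its level exceeded the sum of Slc16a1, Slc16a3 and Slc16a7 in every tumor, from 2.87 times in Ldha-null tumor 1 to 14.8 times in wild-type tumor 1. The geometric means of this ratio were 5.54 in Ldha-null and 7.15 in wild-type tumors (two-sided exact permutation p = 0.492, adjusted over 4 ratios p = 0.794).

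Mpc1 (ENSMUSG00000023861, chr17:8282904-8297661, plus strand), a subunit of the pyruvate carrier of the inner mitochondrial membrane, stood at 46.4, 5.30, 3.82, 3.02 and 9.47 FPKM in the Ldha-null tumors and at 6.18, 9.34, 6.71, 5.67 and 4.62 FPKM in the wild-type tumors. Its partner Mpc2 (ENSMUSG00000026568, chr1:165461037-165481214, plus strand) stood at 184, 30.3, 23.0, 28.9 and 30.3 FPKM in the Ldha-null tumors and at 38.3, 38.6, 35.1, 30.3 and 21.6 FPKM in the wild-type tumors. Both subunits were highest in Ldha-null tumor 1, and in the 7 tumors Mpc2 varied least of the 10 genes (coefficient of variation 12.5%). The Mpc2 to Mpc1 ratio ran from 3.20 to 9.55, with geometric means of 5.30 in Ldha-null and 5.07 in wild-type tumors (two-sided exact permutation p = 0.825, adjusted over 4 ratios p = 0.825). The listed span of Mpc1 overlaps that of the antisense transcript 4930506C21Rik. Whether their exons overlap was not examined, so any effect on the counts of Mpc1 is not known.

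By median FPKM over the 10 tumors the order was Bsg (488), Ldha (466), Slc16a3 (62.8), Mpc2 (30.3), Ldhb (19.96), Slc16a1 (17.8), Mpc1 (5.92), Ldhd (2.20), Slc16a4 (1.91) and Slc16a7 (1.07). Of neighbours in this order, Ldha stood above Slc16a3 and Mpc1 above Ldhd in 10 of 10 tumors. Slc16a3 stood above Mpc2, and Ldhb above Slc16a1, in 5 of 10 tumors. Bsg stood above Ldha, Mpc2 above Ldhb and Ldhd above Slc16a4 in 7. For Bsg with Ldha and for Mpc2 with Ldhb, the exceptions by FPKM were the tumors that stood apart. Differences within these pairs were not tested. By the listed gene lengths Mpc2 stood above Ldhb in 5 tumors and Ldhb above Slc16a1 in 3, so the order of these genes also depends on the length used, and the tallies of the other pairs were the same. The pairs of Slc16a1 with Mpc1 and of Slc16a4 with Slc16a7 kept their order in 9 and 8 tumors.

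The 3 tumors that stood apart shared high Ldha and low Slc16a7, and none of the other 8 genes lay outside the range of the 7 on the same side in all 3. Ldha-null tumor 1 lay above the range of the 7 other tumors for Ldha, Ldhb, Slc16a3, Mpc1 and Mpc2, below it for Slc16a4 and Slc16a7, and within it for 3 genes. Wild-type tumor 5 lay above for Ldha, Slc16a1 and Slc16a3 and below for Slc16a4, Slc16a7 and Mpc2. Ldha-null tumor 3 lay above for Ldha alone and below for Slc16a7, Bsg and Mpc2. Of all 15176 tested genes, 15.9%, 19.0% and 15.4% lay above that range in Ldha-null tumor 1, wild-type tumor 5 and Ldha-null tumor 3, and 58.2%, 35.4% and 40.3% below it, so single positions outside the range are common in these tumors. Skeletal muscle and adipocyte RNA in Ldha-null tumor 1, and basal keratinocyte RNA in the other two, moved with these values, and their part in them was not tested.

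**Figure D2:**
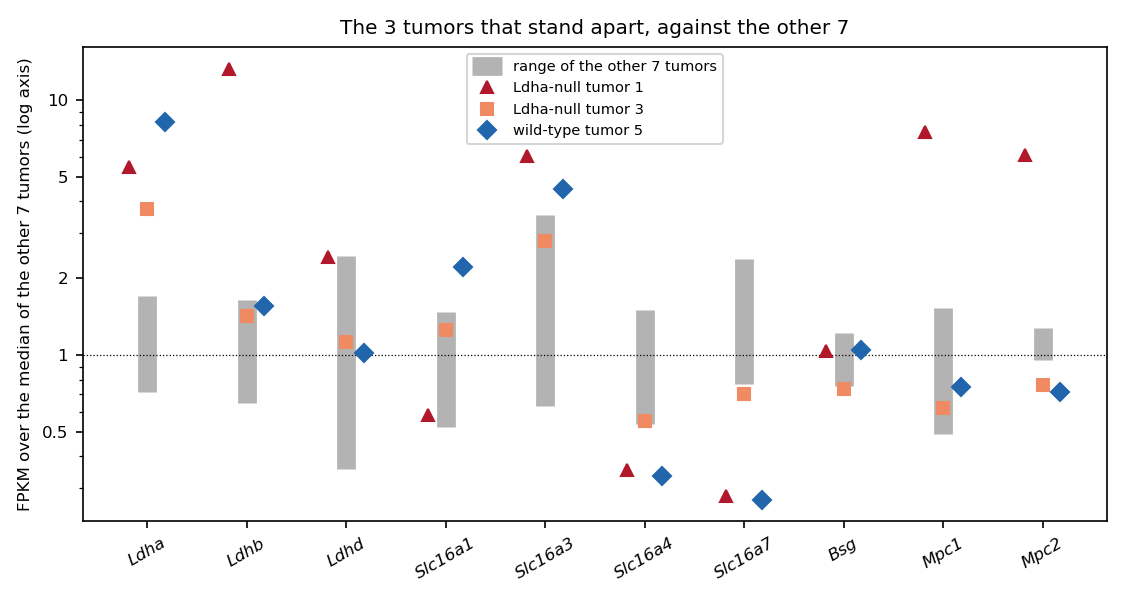
FPKM in each of the 3 tumors that stood apart, divided by the median of the other 7 tumors (log axis), for each gene; grey bars give the range of the 7. Ldha lies above the bar in all 3 tumors (3.73 to 8.18 times the median), Slc16a7 below it in all 3, and Ldhb, Mpc1 and Mpc2 above it in Ldha-null tumor 1 only.

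The covariation of Ldha was measured on log2 CPM within the 7 tumors left when the 3 with the lowest Vim were set aside (Ldha-null tumors 2, 4 and 5 and wild-type tumors 1 to 4). P-values count all 5040 pairings with an absolute r at least as large. Within these 7, Ldha ran from 246 to 589 FPKM, highest in wild-type tumor 4 and Ldha-null tumor 4. None of the 9 other genes was related to Ldha at an adjusted p under 0.05, and neither was any of 15175 genes (0%). At an unadjusted p under 0.05 it was 0 of 9, against 9.49% of all tested genes.

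Bsg had the highest r with Ldha (r = 0.71, exact permutation p = 0.0677, adjusted p = 0.556 over all genes; rho = 0.61, exact permutation p = 0.167). Slc16a3 followed (r = 0.68, exact permutation p = 0.107, adjusted p = 0.608; rho = 0.68, exact permutation p = 0.110), and Ldhb had the most negative r (r = -0.60, exact permutation p = 0.144, adjusted p = 0.642; rho = -0.50, exact permutation p = 0.267). Without Ldha-null tumor 4 and wild-type tumor 4, the 2 farthest from the median of Ldha, these r were -0.04, 0.07 and -0.06, so all 3 rest on those tumors. Leaving out any 1 of the 7 gave r of 0.51 to 0.95 for Bsg, 0.56 to 0.78 for Slc16a3 and -0.81 to -0.44 for Ldhb. The highest of these, Bsg without Ldha-null tumor 2, had an unadjusted exact permutation p of 0.00417. The r of the other 6 genes ran from -0.52 for Ldhd to 0.29 for Slc16a1 (exact permutation p = 0.231 and 0.518, adjusted p = 0.698 and 0.857).

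Since clustering set apart Ldha-null tumor 1 alone, the relations were also computed over the other 9 tumors, a choice made after the data were seen. Of the 9 genes 3 then had an unadjusted p under 0.05, against 29.8% of all tested genes, and none had an adjusted p under 0.05, against 8 of 15175 (0.0527%). Slc16a3 had the highest r (r = 0.78, exact permutation p = 0.00498, adjusted p = 0.0897; rho = 0.82, exact permutation p = 0.0108). Slc16a1 followed (r = 0.75, exact permutation p = 0.0157, adjusted p = 0.118; rho = 0.62, exact permutation p = 0.0857), and Slc16a7 had the most negative r (r = -0.70, exact permutation p = 0.0403, adjusted p = 0.151; rho = -0.62, exact permutation p = 0.0857). Ldhb, negative over the 7, had an r of 0.48 over the 9. The 2 tumors farthest from the median of Ldha are here Ldha-null tumor 3 and wild-type tumor 5, so the values without them are those over the 7.

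The same 7 tumors were then described by gene lists for pathways and tissues. All 13 hypoxia-induced genes outside glycolysis had a positive r with Ldha, with a median of 0.62, against 6917 of 15175 genes and a median of -0.06 over all tested genes. The highest were Ndrg1, a stress-responsive gene (r = 0.88), and Bnip3, a mitophagy receptor (r = 0.86), and the lowest was the oxygen-sensing hydroxylase Egln3 (r = 0.16). Glycolytic enzymes had a positive r in 17 of 18 genes, with a median of 0.58, the exception being the hexokinase Hk3 (r = -0.34). All 7 proliferation genes had a negative r, with a median of -0.89, from -0.95 for the topoisomerase Top2a to -0.79 for the replication helicase subunit Mcm2, and 7 of 7 had an unadjusted p under 0.05, against 9.49% of all tested genes. At the same unadjusted p it was 4 of 13 hypoxia genes and 2 of 18 glycolytic enzymes. None of these genes passed the adjustment over all genes. Tissue lists were also uneven in sign. A positive r was found in 1 of 7 basal keratinocyte genes (median -0.44) and 0 of 8 suprabasal keratinocyte genes (median -0.56). It was found in 0 of 9 leukocyte genes (median -0.28) and 7 of 8 fibroblast genes (median 0.51). For the NADH shuttles it was 5 of 10 (median -0.08).

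Summed over their genes, the hypoxia list stood at 520 to 935 CPM in the 7 tumors and its r with Ldha was 0.92 (exact permutation p = 0.00417; rho = 0.89, exact permutation p = 0.0123). The proliferation list stood at 280.1 to 801 CPM and its r was -0.96 (exact permutation p = 0.00198; rho = -0.93, exact permutation p = 0.00675). Both were among 36 relations computed, of Ldha and Slc16a3 with 18 lists, and over these the adjusted p was 0.0750 and 0.0714 for r, and 0.0886 for both rho, so neither passed 0.05. Without the 2 farthest tumors r was 0.66 and -0.90. Over the 9 tumors other than Ldha-null tumor 1, r was 0.96 for the hypoxia list (exact permutation p = 5.79e-05, adjusted over the 36 relations p = 0.00208; rho = 0.95, exact permutation p = 0.000353) and 0.44 for the proliferation list (exact permutation p = 0.234, adjusted p = 0.417; rho = 0.0833, exact permutation p = 0.843). For glycolytic enzymes r with Ldha was 0.83 over the 9 tumors (exact permutation p = 0.00610, adjusted p = 0.0439; rho = 0.82, exact permutation p = 0.0108). The relation of proliferation genes to Ldha therefore changed sign when Ldha-null tumor 3 and wild-type tumor 5 were kept, and that of hypoxia genes did not. Over the 9, p-values treat all tumors as alike, although Ldha-null tumor 3 and wild-type tumor 5 stood apart. Both also lay farthest from the median of Ldha. Of all tested genes, 29.8% had an unadjusted exact permutation p under 0.05 with Ldha over these 9. The relations with lists were added after the data were seen. Beside them, the fibroblast list had an r of 0.80 with Ldha (exact permutation p = 0.0306, adjusted p = 0.193), and its part in them was not tested.

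Over the 7, the r of Slc16a3 was 0.78 with the hypoxia list (exact permutation p = 0.0563, adjusted p = 0.225), 0.77 with glycolytic enzymes (exact permutation p = 0.0427, adjusted p = 0.193) and -0.83 with proliferation (exact permutation p = 0.0292, adjusted p = 0.193). Over the 9 tumors it was 0.86 with the hypoxia list (exact permutation p = 0.00353, adjusted p = 0.0318) and 0.87 with glycolytic enzymes (exact permutation p = 0.00101, adjusted p = 0.0182). With proliferation it was then 0.03 (exact permutation p = 0.939, adjusted p = 0.939). With the other dehydrogenases and carriers of lactate or pyruvate it was 0.86 (exact permutation p = 0.00268, adjusted p = 0.0318). These p-values over the 9 likewise treat all tumors as alike, with Ldha-null tumor 3 and wild-type tumor 5 among them. Among the tumors that stood apart, the proliferation list was at 153 CPM in Ldha-null tumor 1 but at 1060 and 896 CPM in Ldha-null tumor 3 and wild-type tumor 5, which had high Ldha and more proliferation RNA than any of the 7. The hypoxia list stood at 970.1, 1123 and 1476 CPM in these 3, above all of the 7. Its genes did not move together in Ldha-null tumor 1. There Bnip3 stood at 527 FPKM, against 39.0 to 131 FPKM elsewhere. Ddit4 was at 13.0 FPKM, against 22.3 to 150 FPKM elsewhere, and Higd1a at 58.5 FPKM lay within the range of the others.

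**Figure D3:**
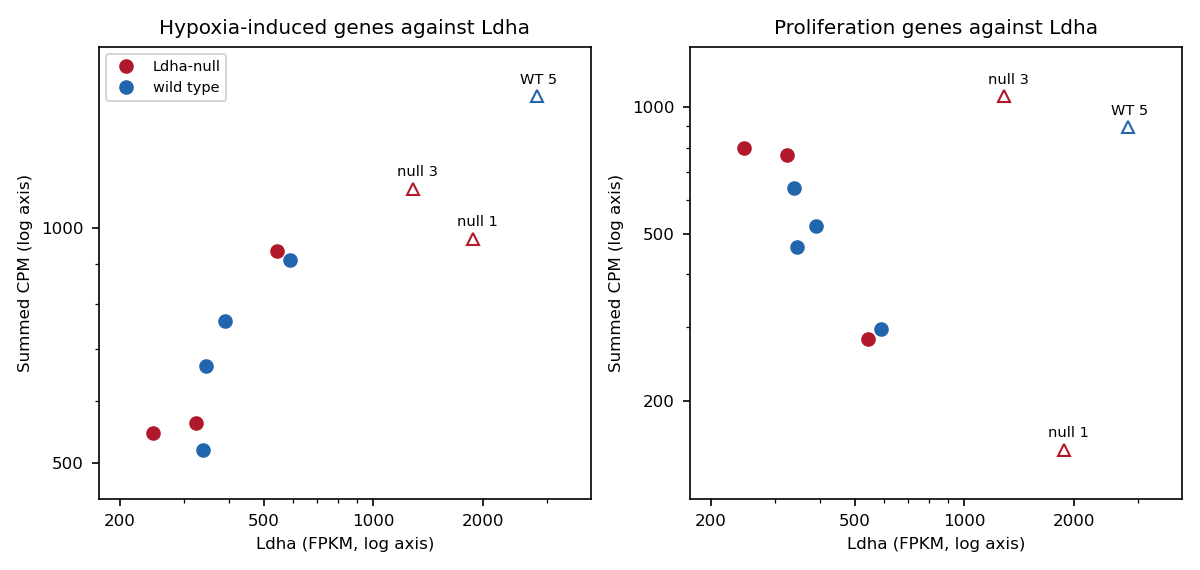
Summed CPM of 13 hypoxia-induced genes (left) and 7 proliferation genes (right) against Ldha FPKM, both on log axes, one point per tumor; open triangles mark the 3 tumors that stood apart and are not in r. Over the 7 tumors of the filled points r was 0.92 for hypoxia and -0.96 for proliferation genes, neither past 0.05 after adjustment over 36 relations. These r were computed on TMM-scaled log2 CPM, whereas the plotted values have no TMM factors. On log2 CPM with no TMM factors r was 0.90 and -0.94. Ldha-null tumor 3 and wild-type tumor 5 lie high on both axes of the right panel.

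Over all 10 tumors, likeness was measured as the SD of the log2 ratio of the 2 genes, which is 0 for genes in constant ratio. The genes nearest to Ldha were Fam160a1 (SD 0.42), Ppp1r14c (0.47), Atp9a (0.48), Tmc7 (0.51) and Ptpn3 (0.54). Slc16a3 was the nearest of the other 9 genes over the 10 tumors, at 0.77 and rank 68 of 15175. Over the 7 tumors it was at 0.82, farther from Ldha than Bsg (0.33), Mpc2 (0.51), Slc16a1 (0.62) and Slc16a4 (0.67). The SD is also small for genes of even level, so it does not measure covariation. The SD of Ldha itself over the 7 was 0.47. The r with Ldha over the 7 was -0.03 for Mpc2 and 0.07 for Slc16a4, against 0.68 for Slc16a3. Nearest to Slc16a3 were Atp9a (0.54), Peg3 (0.56) and the hexokinase Hk2 (0.59), with Ldha at rank 22. Nearest to Ldhb were Slc25a12, the mitochondrial aspartate-glutamate carrier (0.29), Phtf2 (0.32) and Fem1a (0.38), and nearest to Mpc2 was the ATP synthase subunit Atp5e (0.15), followed by genes that include Gm561 (0.18). In Ldha-null tumor 1, the highest for Ldhb and Mpc2, Slc25a12 stood at 187 FPKM, against 12.4 to 24.0 FPKM elsewhere. The SD of log2 CPM of Ldhb itself was 1.52 over the 10 tumors and 0.49 over the 7.

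The genes nearest to Mpc1 were Pigp (0.24), Aldh6a1 (0.30) and Hint3 (0.33), those nearest to Bsg included Bsdc1 (0.17) and Samm50 (0.17), and those nearest to Slc16a1 were Cmtm4 (0.24), Btbd3 (0.28) and Nr2f6 (0.28). For Slc16a4 they were BC005561 (0.24), Mterf1a (0.25) and Uvssa (0.25), for Slc16a7 Lclat1 (0.26), Snx2 (0.34) and Hfe (0.35), and for Ldhd Senp8 (0.40), Tma7 (0.43) and Zscan18 (0.43). Of the 32 nearest genes over 10 tumors, 1, Mterf1a, was also among the nearest over the 7.

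Between the genotypes none of the 10 genes differed at an adjusted p under 0.05, and none of the 15176 tested genes did either (0%, edgeR quasi-likelihood test with Benjamini-Hochberg adjustment). An unadjusted p under 0.05 was reached by 601 genes (3.96%), and by Ldhb alone of the 10. DESeq2 called 1 gene, G0s2, an inhibitor of fat breakdown named here after its value was seen, and limma-voom with sample quality weights called 0. In 25 genes (0.165%) the FPKM of the genotypes did not overlap, none of them among the 10.

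The mean Ldha level was 857 ± 316 FPKM with the Ldha-null label and 898 ± 484 FPKM with the wild-type label (mean ± SEM, n = 5), with a log2 fold change of 0.33 (SE 0.90, 95% interval -1.66 to 2.32, edgeR adjusted p = 0.999). The mean FPKM was lower with the Ldha-null label while the TMM-scaled fold change was above 0, so the sign depends on the scale. The interval spans both a fall and a rise, and leaving out Ldha-null tumor 1 gave -0.55, the lowest value of leaving out any 1 tumor, and leaving out wild-type tumor 5 gave 1.53, the highest.

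The mean Ldhb level was 58.0 ± 39.6 FPKM with the Ldha-null label and 18.6 ± 3.17 FPKM with the wild-type label (mean ± SEM, n = 5). Its log2 fold change was 2.32 (SE 0.99, 95% interval 0.14 to 4.51, edgeR adjusted p = 0.999). By exact permutation of log2 CPM, two-sided, p was 0.532, and without Ldha-null tumor 1, which held the skeletal muscle RNA, the log2 fold change was 0.00 (95% interval -0.85 to 0.86). Mpc1 and Mpc2 had log2 fold changes of 1.71 and 1.46 (edgeR adjusted p = 0.999 for both), which were -0.30 and -0.22 without that tumor. For these 3 genes the share of muscle RNA moved with the value, at 13.9% in that tumor and at most 0.0266% in the others, and so did that of adipocyte RNA, at 0.138% and at most 0.00528%. The part of either was not tested.

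The log2 fold changes of Ldhd, Slc16a3, Slc16a4, Slc16a7, Slc16a1 and Bsg were 0.87, 0.83, -0.43, -0.24, -0.13 and 0.15, each with an interval that includes 0. The shortest interval was that of Bsg, -0.54 to 0.84, and the longest that of Ldhb. Values were above 0 for 7 of the 10 genes and below 0 for 3 (median 0.58, against 0.02 over all tested genes). Without Ldha-null tumor 1 these were 2 and 8, with a median of -0.13.

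**Figure D4:**
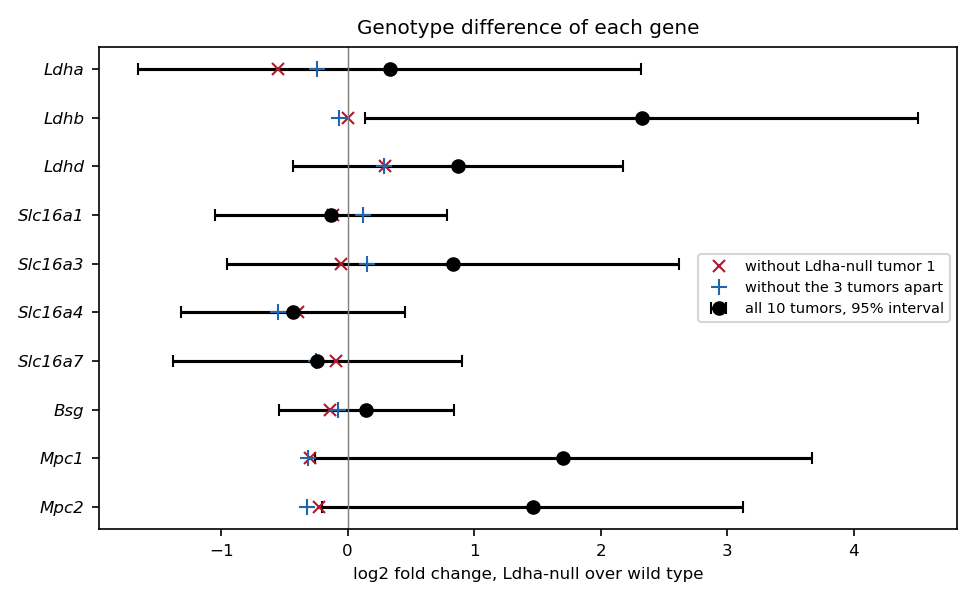
Log2 fold change of each gene, Ldha-null over wild type, with its 95% interval from edgeR (black), and the same value without Ldha-null tumor 1 (red crosses) and without the 3 tumors that stood apart (blue plus signs). For Ldhb, Mpc1 and Mpc2 the value is 2.32, 1.71 and 1.46 with all 10 tumors and 0.00, -0.30 and -0.22 without Ldha-null tumor 1.

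No gene of the neighbouring pathway lists passed the adjusted test. Of pyruvate dehydrogenase, its regulators and other pyruvate enzymes, 15 had values above 0 and 2 below (median 1.02 on the log2 scale), with 5 genes at an unadjusted p under 0.05, among them the pyruvate dehydrogenase kinase Pdk2 (3.31) and the alanine aminotransferase Gpt2 (1.73). Without Ldha-null tumor 1 these were 10 and 7 (median 0.12), with 0 genes at that p. The NADH shuttles, which carry reducing equivalents into mitochondria when lactate is not formed, were positive in 10 of 10 genes (median 0.76), with Gpd1 at 5.28 and Slc25a12 at 2.34. The level of Gpd1 was 179 FPKM in Ldha-null tumor 1, against 0.536 to 2.75 FPKM elsewhere, and without that tumor 5 shuttle genes were positive and 5 negative (median -0.00).

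Glycolytic enzymes had 10 positive and 8 negative values (median 0.50), led by Pgam2, Pfkm and Eno3, isoforms typical of muscle (6.71, 4.12 and 4.96), and 5 and 13 without Ldha-null tumor 1 (median -0.23). The hypoxia list had 7 positive and 6 negative values (median 0.08), with none at an unadjusted p under 0.05. Of 8 other Slc16 genes tested 4 were positive and 4 negative (median 0.12), and the 1 gene at an unadjusted p under 0.05, Slc16a13, averaged 19.2 ± 6.08 FPKM with the Ldha-null label and 39.8 ± 4.39 FPKM with the wild-type label (mean ± SEM, n = 5; edgeR adjusted p = 0.999). Of 8 further dehydrogenases and carriers, Ldhc, Ldhal6b, Slc16a8, Slc5a12 and Hcar1 did not pass the filter on low counts, Mpc1l was not analysed here, and the MCT2 partner Emb and the sodium-coupled carrier Slc5a8 had log2 fold changes of -0.76 and 1.84 (edgeR adjusted p = 0.999 for both).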

How the data were processed

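RNA of 10 tumors was enriched on oligo(dT) beads and sequenced on a HiSeq2500. The authors called bases with CASAVA 1.8, aligned reads to mm10 with TopHat2 and used HTSeq (union mode) for counting. The counts are deposited as whole fragments of each gene. The FPKM values were also made by the authors, and are deposited beside them. No version is given for TopHat2, HTSeq or the annotation in the sources used here, and the length behind FPKM differs from the listed length in 9 of the 10 genes.

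Groups were taken from the labels. The count test was edgeR 4.0.16 in R 4.3.3 (TMM, filterByExpr at 10 counts and 15 in total, quasi-likelihood F-test, no covariate, threshold 0.05), and single values by a two-sided exact permutation test over 252 assignments. Log2 CPM used a prior count of 2. Ratios and relations were computed in Python 3.11.15 with SciPy 1.17.1. The members and lists were chosen with earlier results of these data known. Genes named were the 10 members, the genes most like each (5 for Ldha, 3 for the others), up to 3 per list with the smallest p, and Vim, Krt14 and Ckm. Genes named for their relation to Ldha, Tnnc2 and G0s2 were chosen after their values were seen. Not every gene that this rule takes is reported here.

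The biological coefficient of variation was 63.4%. The count test was tested on simulated data. Alternatives were DESeq2 1.42.0, limma 3.58.1 on counts (voom) and on log2(FPKM + 1), other scalings, filters and covariates, the tumor number as a block, and leaving out tumors. Reads were not analysed here.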

Additional observations from a re-analysis of the deposited data

Results flagged for a closer look

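On log2 CPM, 20 groups of 5 tumors were looked at (10 genes in each genotype). In 4 of them 1 tumor lay farther from its nearest neighbour than Dixon's limit of 0.71 of the range allows. Chance flags about 1 in 20 groups that are independent, but these 20 share the same tumors. How often the same rule flags all tested genes was not computed, so the flags are not particular to these genes. Mpc2 in Ldha-null tumor 1 took up 0.962 of its range (184 FPKM against 23.0 to 30.3 in the other Ldha-null tumors), and Ldhb in the same tumor 0.723 (216 against 10.5 to 23.4). Ldha in wild-type tumor 5 took up 0.727 (2824 FPKM against 340.1 to 589). Slc16a4 in Ldha-null tumor 5 took up 0.713 (3.24 FPKM against 0.841 to 1.54), in a tumor that lay among the 7 for tissue content. The shares are on TMM-scaled log2 CPM, whereas the FPKM values have no TMM factors. By the FPKM shown, Slc16a4 stays under the limit, so this flag depends on the scale. The first 3 are in tumors that stood apart by Vim, muscle or keratinocyte genes, and the part of those tissues was not tested.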

How the results depend on the processing

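The count of genes called between genotypes was 0 in 19 of 20 alternatives and 1 with DESeq2. The 10 genes kept their side of the threshold in the 195 of 198 alternative values that have an adjusted p (lowest 0.705), and DESeq2 gave none for Ldhb, Mpc1 and Mpc2. Of the 198 values 22 changed sign; the cause was not tested. Without the 3 tumors that stood apart the log2 fold changes were -0.24 for Ldha, -0.0673 for Ldhb, 0.12 for Slc16a1, -0.0774 for Bsg, -0.32 for Mpc1, -0.32 for Mpc2, and the Slc16a3 to Slc16a1 difference was -0.19. With limma-voom and sample quality weights they were -0.18 for Ldha, 0.0771 for Ldhb, 0.0887 for Slc16a1, -0.0884 for Slc16a3, -0.11 for Bsg, -0.19 for Mpc1 and -0.16 for Mpc2. With limma on log2(FPKM + 1) Bsg was at -0.0885, where the median of all genes was -0.10. The r of Mpc2 with Ldha became 0.14 as Spearman rho. Over 9 tumors (all but Ldha-null tumor 1) the r with Ldha was 0.48 for Ldhb, 0.0312 for Ldhd, -0.62 for Slc16a4 and 0.44 for the proliferation list, each of the opposite sign to that over 7, and 0.96 for the hypoxia list, then past the threshold (adjusted p = 0.00208). Glycolytic enzymes also passed it with Ldha. With Slc16a3, so did the hypoxia list, glycolytic enzymes and the other dehydrogenases and carriers of lactate or pyruvate.

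Leaving out 1 tumor gave log2 fold changes of -0.55 to 1.53 for Ldha, 0.00 to 2.61 for Ldhb, 0.30 to 1.42 for Ldhd, -0.33 to 0.28 for Slc16a1, -0.0549 to 1.37 for Slc16a3, -0.69 to -0.26 for Slc16a4, -0.54 to 0.20 for Slc16a7, -0.14 to 0.28 for Bsg, -0.30 to 1.99 for Mpc1 and -0.22 to 1.69 for Mpc2. Log2 ratio differences were -0.15 to 0.25 for Mpc2 to Mpc1 and -0.0829 to 0.88 for Slc16a3 to Slc16a1. Relations to Ldha were -0.28 to 0.23 for Mpc2, -0.19 to 0.77 for Slc16a1, -0.57 to 0.39 for Slc16a4 and -0.47 to 0.0184 for Slc16a7. Those of the hypoxia and proliferation lists, added after the data were seen, were 0.87 to 0.96 and -0.97 to -0.94.

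Whether the tumor numbers pair these tumors is not stated. Deviations of same-numbered tumors from their group means correlated at -0.51 to 0.55, which cannot decide it. With the number as a replicate block 0 genes were called, 120 had an unadjusted p under 0.05, against 601 without it, and the log2 fold changes were 0.0723 for Slc16a1, 0.77 for Ldhb, 0.26 for Mpc1 and 0.39 for Mpc2. With 5 tumors per genotype and a biological coefficient of variation of 63.4%, the intervals of these genes leave room for differences in either direction. That of Ldhb lay above 0 with all 10 tumors and spanned 0 without Ldha-null tumor 1 (-0.85 to 0.86), with the block (-0.90 to 2.43), with the basal keratinocyte level as a covariate (-0.34 to 4.67) and without any 1 of wild-type tumors 1 to 4.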
